A study of Mus musculus with 12 samples.

Results

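The 10 genes Cfd, Adipoq, Cidec, Plin1, Plin4, Fabp4, Lpl, Pparg, Cebpa and Car3 were chosen by mouse symbol as markers of adipocytes, out of 32100 distinct genes of both deposited tables. All 10 were listed in each table. The samples are labelled 4T1, a mammary carcinoma line derived from a BALB/c mouse, and 12 are described, 3 each of the genotypes GSH, WT, Cas9 and Ctrl. The label GSH is not expanded, no gene targeted with Cas9 is named, and the treatment label reads culture for each sample, in DMEM with 10% serum. The design sets GSH against WT and Cas9 against Ctrl. The 10 libraries used were 3 GSH, 3 WT, 3 Cas9 and Ctrl 3. Ctrl 1 and Ctrl 2 are not analysed here. Whether replicates came from separate cultures or animals is not given, so p-values reflect only how far these samples spread, and that spread may be technical.

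Adipocytes store triglyceride in a large lipid droplet coated with perilipins, take up fatty acids that lipoprotein lipase frees from lipoproteins, and secrete adipokines such as adiponectin. Their differentiation is driven by the transcription factors PPARG and CEBPA, which bind and activate many genes of lipid storage. The mammary gland lies in a fat pad, and mouse 4T1 tumours are commonly grown there. Several of the 10 genes are also used by other cells: Fabp4 by capillary endothelium and macrophages, Lpl by macrophages and muscle, Cebpa by myeloid cells, and Car3 by skeletal muscle.

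RefSeq promoter windows (build GRCm38.p6, 250 bases before to 50 after a start site) were found for 7 of the 10 genes, at 10 start sites. Those of Cfd, Adipoq and Plin1, which were each highest in Ctrl 3 and lowest in Cas9 1, and of 1 start of Pparg, which was lowest in Cas9 2, are given 5′ to 3′ on the gene's strand. Cidec was also highest in Ctrl 3 and lowest in Cas9 1, but its windows are not given. Capitals mark the loose C/EBP pattern TTGCNNAA and the CCAAT box, each on either strand. The windows lie at chr10:79890603-79890902 (plus strand) for Cfd, chr16:23146286-23146585 (plus) for Adipoq, chr7:79732727-79733026 (minus) for Plin1 and chr6:115421816-115422115 (plus) for Pparg.
Cfd: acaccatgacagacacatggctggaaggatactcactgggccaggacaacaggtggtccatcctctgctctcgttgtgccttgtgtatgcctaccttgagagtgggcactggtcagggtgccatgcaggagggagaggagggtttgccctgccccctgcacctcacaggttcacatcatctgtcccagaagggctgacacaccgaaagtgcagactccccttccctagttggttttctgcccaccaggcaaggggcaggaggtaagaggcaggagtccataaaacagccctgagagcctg
Adipoq: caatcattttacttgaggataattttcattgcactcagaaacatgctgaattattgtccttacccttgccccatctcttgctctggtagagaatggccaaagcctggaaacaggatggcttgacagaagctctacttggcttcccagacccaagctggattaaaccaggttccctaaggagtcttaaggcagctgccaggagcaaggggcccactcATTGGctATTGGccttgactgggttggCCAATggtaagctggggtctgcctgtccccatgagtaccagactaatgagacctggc
Plin1: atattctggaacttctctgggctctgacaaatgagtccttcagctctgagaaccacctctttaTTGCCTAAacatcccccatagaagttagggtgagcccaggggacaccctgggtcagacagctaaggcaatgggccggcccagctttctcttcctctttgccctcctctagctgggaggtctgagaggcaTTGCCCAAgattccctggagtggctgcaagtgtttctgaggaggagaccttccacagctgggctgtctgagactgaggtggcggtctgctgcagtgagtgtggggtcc
Pparg: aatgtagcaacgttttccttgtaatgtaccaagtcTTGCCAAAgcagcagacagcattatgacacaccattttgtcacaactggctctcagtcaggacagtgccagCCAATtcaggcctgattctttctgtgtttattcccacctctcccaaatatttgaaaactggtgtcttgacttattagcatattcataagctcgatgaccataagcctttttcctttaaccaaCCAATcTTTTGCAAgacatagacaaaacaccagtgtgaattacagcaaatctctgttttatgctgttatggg
The Adipoq window held CCAAT boxes at -34, -27 and -7, counted from the start site to the first base of the match. Plin1 held TTGCNNAA at -187 and -58, and the Pparg window held it at -215 and -16 with CCAAT at -144 and -22. The Pparg start given is the only one of its starts with TTGCNNAA. A Cidec window that is not given held that pattern at -198. Over the 10 windows, TTGCNNAA was found in 3 and CCAAT in 4, where 10.8% and 37.4% of all 32851 windows hold them. The nuclear receptor hexamer AGGTCA was found in 2 windows (16.3% of all windows), both of Pparg and both at starts not given here. Its tandem repeat with any 1 base between the copies was found in 0 (0.0396% of all windows) and TATAAA in 2 (13.6% of all windows). The Cfd window held neither motif that the capitals mark. These matches describe the letters of the windows alone.

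Depth, recovered as whole reads from the steps of the FPKM values (a level per kilobase of gene length, scaled to the size of the library), was 18531444 to 30168737 reads in GSH and WT libraries and 33152215 to 39201544 in Cas9 and Ctrl libraries. The tables were normalised separately, so that the table, the groups in it and any difference in level between them cannot be told apart. Although every sample is labelled as cultured carcinoma cells, the Cas9 and Ctrl libraries held transcripts of other cell types. The pan-leukocyte gene Ptprc stood at 15.9 to 21.1 FPKM there and at 0.0174 to 0.0407 FPKM in the GSH and WT libraries. Some libraries stood apart. In Cas9 3, a list of 10 skin and sebaceous genes summed to 98.9 FPKM, against 48.9 to 51.4 FPKM in Cas9 1 and 2 and 35.2 FPKM in Ctrl 3, with the epidermal keratin Krt1 at 15.9 FPKM in Cas9 3 and at 0 in the other 3. Mgst1, a gene of that list, made up most of the sum in Cas9 1, Cas9 2 and Ctrl 3, from 2112, 1856 and 1527 reads. It had 1588 reads in Cas9 3, so the sums elsewhere say little about the other genes of the list. In Cas9 1, 10 endothelial genes summed to 241 FPKM, against 104 and 154 FPKM in Cas9 2 and 3 and 118 FPKM in Ctrl 3. In WT 2, 14 skeletal muscle genes summed to 148 FPKM, against 56.7 to 74.5 FPKM in the other 5 libraries of that table.

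The adipocyte genes were read at 0.0607 to 53.7 FPKM in the Cas9 and Ctrl libraries and at 0 to 0.481 FPKM in the GSH and WT libraries. Summed over the 10 genes, the level was 83.8, 71.4 and 54.2 FPKM in Cas9 1 to 3 and 117 FPKM in Ctrl 3. The same sum was 1.27, 1.31 and 1.08 FPKM in the GSH libraries and 1.01, 1.58 and 1.16 FPKM in the WT libraries. Fabp4 and Cebpa made up most of the level in the Cas9 and Ctrl libraries, while Pparg, Plin4 and Plin1 were the lowest. In bulk RNA, fewer adipocytes and less of these transcripts per adipocyte cannot be told apart.

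**Figure D1:**
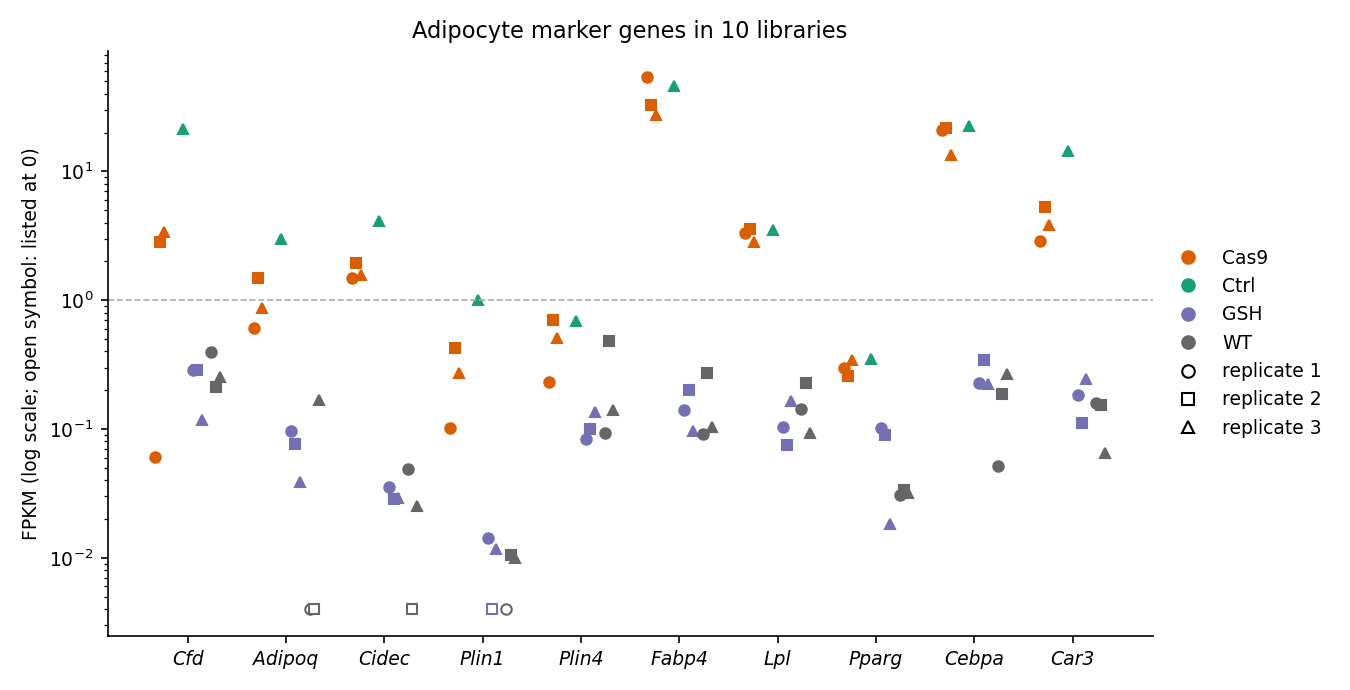
FPKM of the 10 adipocyte genes in each library on a log scale, by group (colour) and replicate (symbol), with open symbols at the foot for values of 0 and a dashed line at an FPKM of 1. Cfd, Adipoq, Cidec, Plin1 and Car3 are higher in Ctrl 3 than in each Cas9 library, and all GSH and WT values lie under 0.5 FPKM.

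Both secreted products were lower in Cas9 than in Ctrl 3. Cfd, which encodes the complement protease adipsin, stood at 0.0607, 2.81 and 3.41 FPKM in Cas9 1 to 3 and at 21.3 FPKM in Ctrl 3, from 2, 86 and 109 reads in Cas9 and 771 in Ctrl 3. Ctrl 3 was above all 3 Cas9 libraries, and Cas9 1 was far below the other Cas9 libraries. The ratio of Cas9 3 over Cas9 1 was 56.2, with a 95% counting interval of 15.2 to 470 (exact, from the reads), so the replicates of one group differed by more than the 10.2-fold between Ctrl 3 and the Cas9 mean. The log2 change of FPKM + 1, Cas9 minus Ctrl, was -3.10 (SE 0.86). Without Cas9 1 it was -2.44. With a pseudocount of 0.1 in place of 1 it was -4.18 (SE 1.87). Adipoq, which encodes the insulin-sensitising hormone adiponectin, stood at 0.613, 1.49 and 0.867 FPKM in Cas9 1 to 3 and at 2.98 FPKM in Ctrl 3, from 27, 61 and 37 reads in Cas9 and 144 in Ctrl 3. Here, too, Ctrl 3 was highest and Cas9 1 lowest, but the Cas9 libraries lay within 2.44-fold of one another. Its log2 change was -1.02 (SE 0.32), and with a pseudocount of 0.1 it was -1.58 (SE 0.57).

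Of the lipid droplet genes, Cidec and Plin1 were highest in Ctrl 3 and Plin4 was not. Cidec, whose protein lets lipid droplets fuse and grow, stood at 1.5, 1.96 and 1.56 FPKM in Cas9 1 to 3 and at 4.16 FPKM in Ctrl 3. The Cas9 libraries lay close together, with a ratio of highest to lowest of 1.31, and Ctrl 3 was 2.48-fold above their mean (log2 change -0.95, SE 0.21). Plin1, the perilipin that gates hormone-driven lipolysis in adipocytes, stood at 0.102, 0.425 and 0.271 FPKM in Cas9 1 to 3 and at 1.01 FPKM in Ctrl 3. Every Cas9 library was below Ctrl 3, and Ctrl 3 was 3.80-fold above the Cas9 mean. Plin4, a perilipin of small and nascent droplets, stood at 0.230, 0.698 and 0.505 FPKM in Cas9 1 to 3 and at 0.684 FPKM in Ctrl 3, so that Ctrl 3 lay within the range of the Cas9 libraries. Plin1 and Plin4 had mean levels under 1 FPKM and stayed out of the test, and without that minimum their log2 changes were -0.68 (SE 0.17) and -0.20 (SE 0.22).

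The genes of fatty acid handling overlapped between the groups. Fabp4, a cytosolic fatty acid carrier, stood at 53.7, 33.0 and 27.3 FPKM in Cas9 1 to 3 and at 46.4 FPKM in Ctrl 3, with Cas9 1 the highest of the 4. Lpl, the lipase that frees fatty acids from lipoproteins, stood at 3.32, 3.58 and 2.82 FPKM in Cas9 1 to 3 and at 3.52 FPKM in Ctrl 3. Ctrl 3 lay inside the Cas9 range for both genes. Their log2 changes were -0.34 (SE 0.39, 95% interval -1.35 to 0.68) for Fabp4 and -0.09 (SE 0.20, 95% interval -0.61 to 0.42) for Lpl. Without Cas9 1 the log2 change of Fabp4 was -0.61.

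For the transcription factors, Ctrl 3 was close to the highest Cas9 library. Pparg, the nuclear receptor of fat cell differentiation, stood at 0.298, 0.259 and 0.341 FPKM in Cas9 1 to 3 and at 0.347 FPKM in Ctrl 3, from 36, 29 and 40 reads in Cas9 and 46 in Ctrl 3. Cebpa, a leucine zipper factor of both fat and myeloid cells, stood at 21.1, 21.8 and 13.3 FPKM in Cas9 1 to 3 and at 22.5 FPKM in Ctrl 3. Ctrl 3 was the highest of the 4 for both, by no more than 1.03-fold over the nearest Cas9 library. The log2 change was -0.28 for Cebpa (SE 0.31, 95% interval -1.09 to 0.52) and, without the minimum, -0.05 for Pparg (SE 0.05). Without Cas9 3, the library with the skin transcripts, that of Cebpa was -0.07. Car3, a cytosolic carbonic anhydrase abundant in fat, stood at 2.86, 5.34 and 3.81 FPKM in Cas9 1 to 3 and at 14.5 FPKM in Ctrl 3. All Cas9 libraries were below Ctrl 3, which was 3.62-fold above their mean (log2 change -1.66, SE 0.31).

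**Figure D2:**
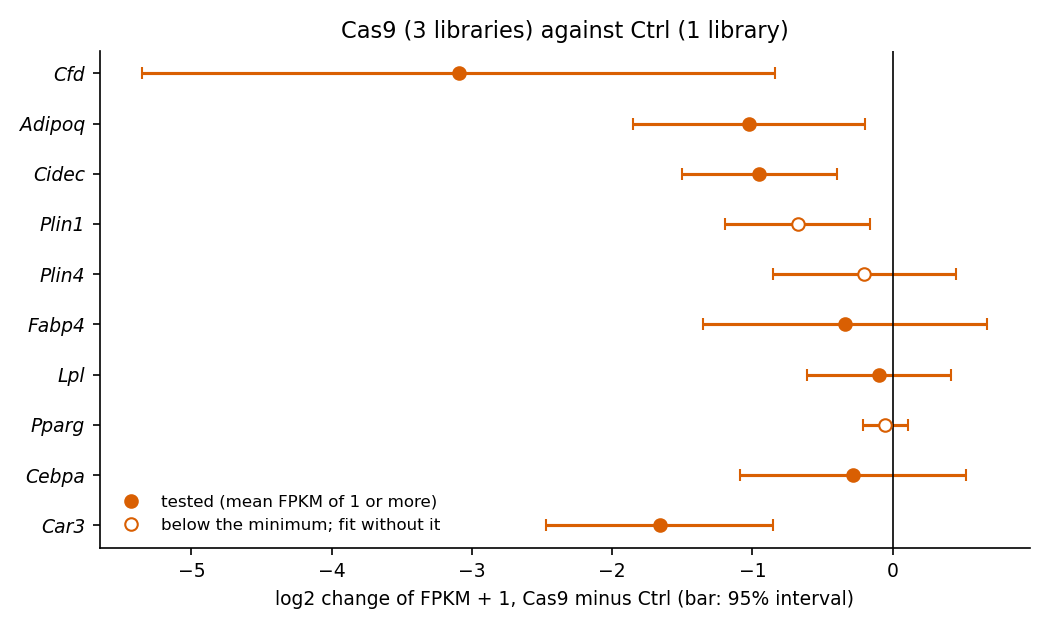
Log2 change of FPKM + 1, Cas9 minus Ctrl, for each adipocyte gene with its 95% interval from limma; filled points were tested, and open points lie below the mean FPKM of 1 and come from the fit without that minimum. Points left of 0 are lower in Cas9, and the intervals of Plin4, Fabp4, Lpl, Pparg and Cebpa span 0.

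None of these changes passed limma's moderated test with Benjamini-Hochberg adjustment at 0.05. Of the 10 genes, 7 passed the minimum on mean level and 0 of them were called (0% of 11407 tested genes were called), with adjusted p = 1.00 each in limma. At an unadjusted p of 0.05, 4 of the 7 were lower in Cas9 (0.587% of tested genes were lower and 1.84% differed in either direction), namely Car3, Cidec, Cfd and Adipoq. Without the minimum, Plin1 joined them, making 5 of the 10 genes (1.99% of all genes were lower). With a pseudocount of 0.1, 3 of the 7 remained and Cfd did not. Adipoq, with a mean of 0.991 FPKM in Cas9 and a level of 2.98 FPKM in Ctrl 3, reached the minimum only through Ctrl 3. Its place among the 7 thus rests on the library where it was highest. Because Ctrl has 1 library, the spread in this fit comes from the Cas9 libraries alone and the lone library is assumed to vary like them. Ctrl 3 was above all 3 Cas9 libraries for 7 of the 10 genes, against 21.8% of the 13890 genes whose mean reached 0.1 FPKM. Leaving out Cas9 1, 2 or 3 made this 8 genes (34.1% of all genes), 9 genes (28.5%) and 7 genes (33.3%). The median log2 change over the 10 genes was -0.51 without the minimum, and that over all genes was 0.0027.

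Within each library the 5 genes with the largest differences kept partly constant proportions. They were grouped for their differences in these same libraries, so some likeness of their proportions follows from the choice. The ratio of Car3 over Adipoq in FPKM was 4.66, 3.57 and 4.4 in Cas9 1 to 3 and 4.87 in Ctrl 3, and the counting intervals of these 4 ratios overlapped. Plin1 over Adipoq was 0.167, 0.285 and 0.313 in Cas9 1 to 3 and 0.339 in Ctrl 3. Cidec over Adipoq was highest in Cas9 1, at 2.44, against 1.31 and 1.80 in Cas9 2 and 3 and 1.39 in Ctrl 3. For Plin1 and for Cidec, too, the counting intervals of the 4 ratios overlapped, though that of Plin1 in Cas9 1 was wide, at 0.0808 to 0.329. Cfd did not keep to these proportions: Cfd over Adipoq was 0.099, 1.88 and 3.94 in Cas9 1 to 3 and 7.15 in Ctrl 3, with 95% counting intervals (exact, counting error only) of 0.0114 to 0.394, 1.34 to 2.66, 2.69 to 5.88 and 5.98 to 8.61. These intervals did not overlap one another. Fabp4 over Adipoq was 87.6, 22.1 and 31.5 in Cas9 1 to 3 and 15.6 in Ctrl 3, so Fabp4 was lowest beside Adipoq where the Adipoq level was highest.

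**Figure D3:**
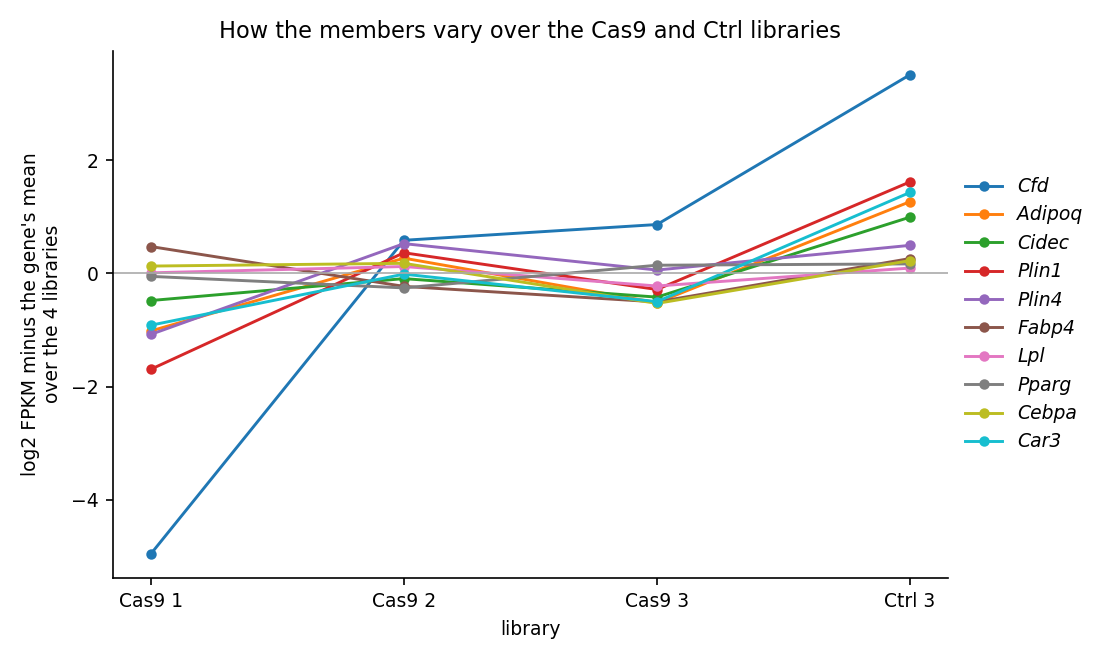
Log2 FPKM of each adipocyte gene minus the mean of that gene over the Cas9 and Ctrl libraries, with lines joining the values of a gene. Cfd, Plin1, Car3, Adipoq and Cidec are highest in Ctrl 3 and lowest in Cas9 1, while Fabp4 is highest in Cas9 1.

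Genes outside the list whose level ran most like the mean profile of the 7 tested adipocyte genes were Ucn2, Padi1, Gdf3, Slc20a1, Sncg, Cnnm4, Gpr39, Fmod, Slco2b1 and Insig1, out of 11191 compared. Likeness is the root mean square distance of log2(FPKM + 1), centred for each gene, over these 4 libraries, which all genes share. It ran between 0.0938 for Ucn2 and 0.194 for Insig1, and was 0.0767 for Cidec, 0.0791 for Adipoq, 0.281 for Car3, 0.429 for Cebpa, 0.439 for Lpl, 0.544 for Fabp4 and 1.13 for Cfd, which are part of the profile. Sncg, a synuclein that adipocytes also express, stood at 1.91, 2.31 and 2.64 FPKM in Cas9 1 to 3 and at 5.37 FPKM in Ctrl 3. Gdf3, a growth factor of the TGF-beta family, stood at 0.785, 0.972 and 0.532 FPKM in Cas9 1 to 3 and at 2.84 FPKM in Ctrl 3. Both were lower in each Cas9 library than in Ctrl 3, which follows from their choice by likeness to a profile highest in Ctrl 3.

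Few genes were as far above the Cas9 libraries in Ctrl 3 as Car3, Cfd and Cidec. Among genes whose mean reached 1 FPKM, 11 (0.0964% of 11407) were more than 2 times as high in Ctrl 3 as in the highest Cas9 library, a threshold chosen after values were seen. Car3, Cfd and Cidec were 3 of them, and the others were Ccl22, Fcrls, Fmod, Gdf3, Hp, LOC118567384, Padi1 and Sncg. Hp, which encodes the haemoglobin-binding acute phase protein haptoglobin, stood at 6.57, 13.4 and 15.2 FPKM in Cas9 1 to 3 and at 33.6 FPKM in Ctrl 3. Down to a mean of 0.1 FPKM there were 52 such genes (0.374% of 13890), and Plin1 was among them. Adipoq lay just outside, with Ctrl 3 at 1.996 times the highest Cas9 library.

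Summed markers of other cells ranked the same libraries in other orders. The sum of Cfd, Adipoq, Cidec, Plin1 and Car3 was 5.13, 12 and 9.92 FPKM in Cas9 1 to 3 and 44.0 FPKM in Ctrl 3, and the sum of the other 5 genes was 78.7, 59.3 and 44.3 FPKM in Cas9 and 73.5 FPKM in Ctrl 3. The first 5 were grouped for their large differences in these same libraries, so that sum's height in Ctrl 3 follows from the choice. The 14 macrophage genes, among them Lyz2 and C1qa, summed to 5494, 4212 and 2256 FPKM in Cas9 1 to 3 and 4971 FPKM in Ctrl 3, and Cas9 1 was the highest, as it was for Fabp4. The 13 genes of adipocyte progenitors and fibroblasts, among them the collagen gene Col1a1, summed to 2094, 3468 and 1739 FPKM in Cas9 and 2846 FPKM in Ctrl 3, inside the Cas9 range. Neither the macrophage list nor the fibroblast list had a called gene. Lyz2 made up much of the macrophage sum, at 3048, 2001 and 1035 FPKM in Cas9 1 to 3 and 2536 FPKM in Ctrl 3. Taken gene by gene, Ctrl 3 was above all 3 Cas9 libraries for 8 of the 14 macrophage genes, against 22.5% of 11407 tested genes. That held for 3 of the 13 fibroblast genes and 0 of the 10 endothelial genes. The median log2 changes of these lists were -0.38, -0.36 and 0.33, in that order. The endothelial sum given above was highest in Cas9 1, where Gpihbp1, the endothelial anchor of lipoprotein lipase, also stood highest, at 71.6 FPKM against 28.0 and 37.5 FPKM in Cas9 2 and 3 and 21.1 FPKM in Ctrl 3. The 14 skeletal muscle genes summed to 48.0, 36.4 and 19.6 FPKM in Cas9 1 to 3 and 21.9 FPKM in Ctrl 3, so Car3 was highest in a library where the muscle sum was near its lowest. Of 9 milk protein and luminal genes, 6 were highest in Ctrl 3, among them the casein gene Csn3 (0.395, 0.687 and 0.0940 FPKM in Cas9 1 to 3 and 2.41 FPKM in Ctrl 3), while Wap was at 0 in all 4. Of the 13890 genes whose mean reached 0.1 FPKM, 21.8% were highest in Ctrl 3. Only 1 of the 9, Xdh, reached the minimum for the test. The most abundant of the 9, the xanthine dehydrogenase gene Xdh, was lowest in Ctrl 3 (59.2, 49.4 and 51.7 FPKM in Cas9 1 to 3 and 39.8 FPKM in Ctrl 3). The sum of the list was also lowest there (60.0, 50.2 and 52.1 FPKM in Cas9 and 43.9 FPKM in Ctrl 3). Xdh made up nearly all of that sum, so the sum repeats Xdh and does not describe the other genes of the list. The liver list, of which 0 genes were tested, summed to 0.214, 0.0661 and 0.106 FPKM in Cas9 1 to 3 and 0.892 FPKM in Ctrl 3. The part of these cell types in the differences of the adipocyte genes was not tested.

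**Figure D4:**
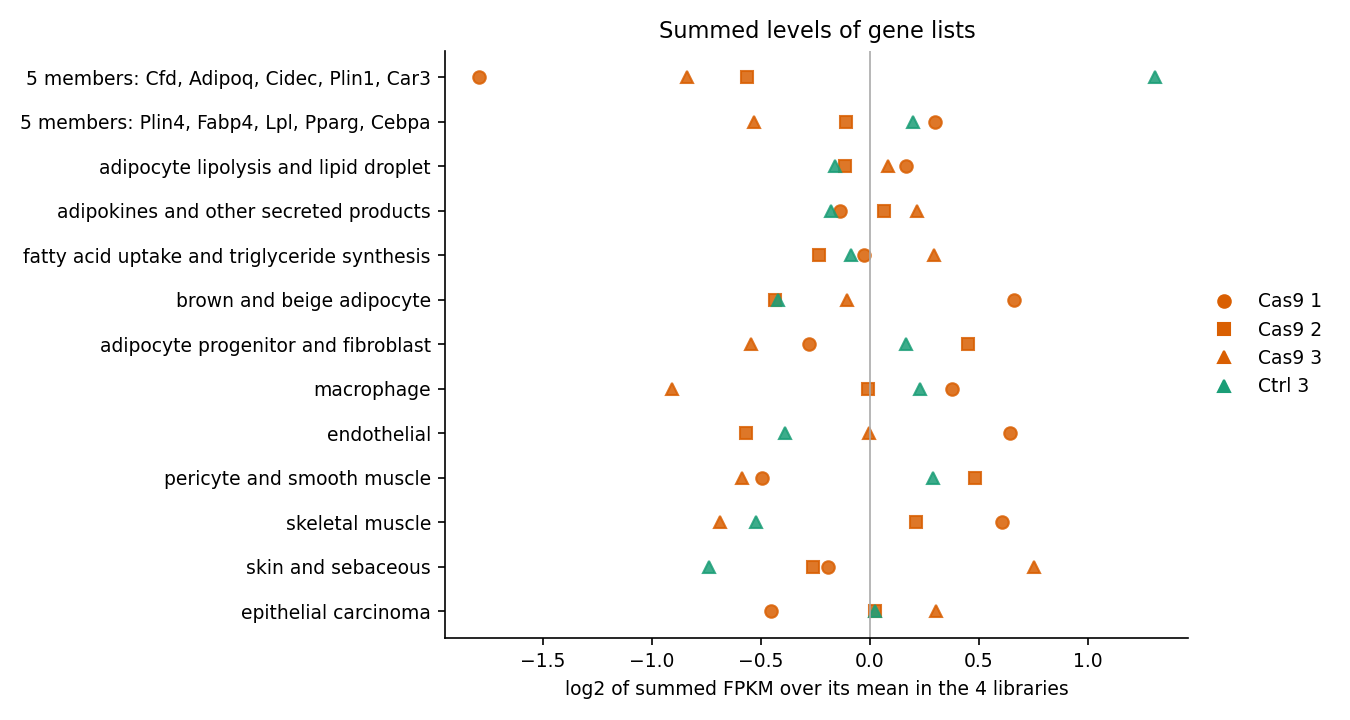
Summed FPKM of gene lists in Cas9 1, Cas9 2, Cas9 3 and Ctrl 3, as log2 over the mean of the list's sums in these libraries. The sum of Cfd, Adipoq, Cidec, Plin1 and Car3, grouped for their large differences in these libraries, is 44.0 FPKM in Ctrl 3 and at most 12 FPKM in Cas9. No other list drawn has Ctrl 3 apart from the Cas9 libraries by as much. The liver list, not drawn, is 0.892 FPKM in Ctrl 3 and at most 0.214 FPKM in Cas9.

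The wider set of adipocyte genes had no called member in Cas9 against Ctrl either. Of 13 tested genes of lipolysis and the lipid droplet, 7 adipokines, 17 genes of fatty acid uptake and triglyceride synthesis, 10 further adipogenic transcription factors, 8 genes of adipocyte receptors and insulin signalling and 2 brown fat genes, 0 were called in limma, and 1, Cebpd, had an unadjusted p under 0.05 (1.84% of all 11407 tested genes had one). Cebpd, an early adipogenic factor, was higher in Cas9, at 17.2, 14.6 and 16.7 FPKM in Cas9 1 to 3 and 10.1 FPKM in Ctrl 3. The median log2 change was 0.08 for lipolysis and the lipid droplet, 0.12 for adipokines and -0.08 for uptake and synthesis, and that over all tested genes was -0.01. Plin2, the perilipin of most cell types, stood at 93.2, 77.4 and 89.5 FPKM in Cas9 1 to 3 and at 66.4 FPKM in Ctrl 3, the opposite order to Plin1. Leptin (Lep) stood at 0.713, 1.06 and 0.532 FPKM in Cas9 and at 0.987 FPKM in Ctrl 3, inside the Cas9 range. Resistin (Retn), an adipokine of mouse fat, stood at 0.0217, 0.141 and 0.112 FPKM in Cas9, from 1, 6 and 5 reads, and at 0.793 FPKM from 40 reads in Ctrl 3. Ucp1, the uncoupling protein of brown fat, was at 0.034, 0 and 0 FPKM in Cas9 1 to 3 and at 0.0155 FPKM in Ctrl 3.

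In the GSH and WT libraries the adipocyte genes were close to the floor. None of the 10 reached a mean of 1 FPKM, so 0 were tested, where 37% of 12283 tested genes were called. Plin1 had 0 to 2 reads per library, Cidec 0 to 2, Adipoq 0 to 5 and Pparg 1 to 9. Of the 60 values, 5 were 0, each of which allows up to 3 reads at that depth. The sum of reads over the 10 genes was 127, 80 and 86 in the GSH libraries and 80, 161 and 83 in the WT libraries. The groups overlapped for all 10 genes, against 10.3% of the genes with a mean under 1 FPKM whose groups did not. Without the minimum, 0 of the 10 were called in limma and 0 had an unadjusted p under 0.05 (22.2% of 30803 genes had one), and the smallest adjusted p was 0.462, for Pparg. Differences of these genes between GSH and WT were not detectable at this depth.

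**Figure D5:**
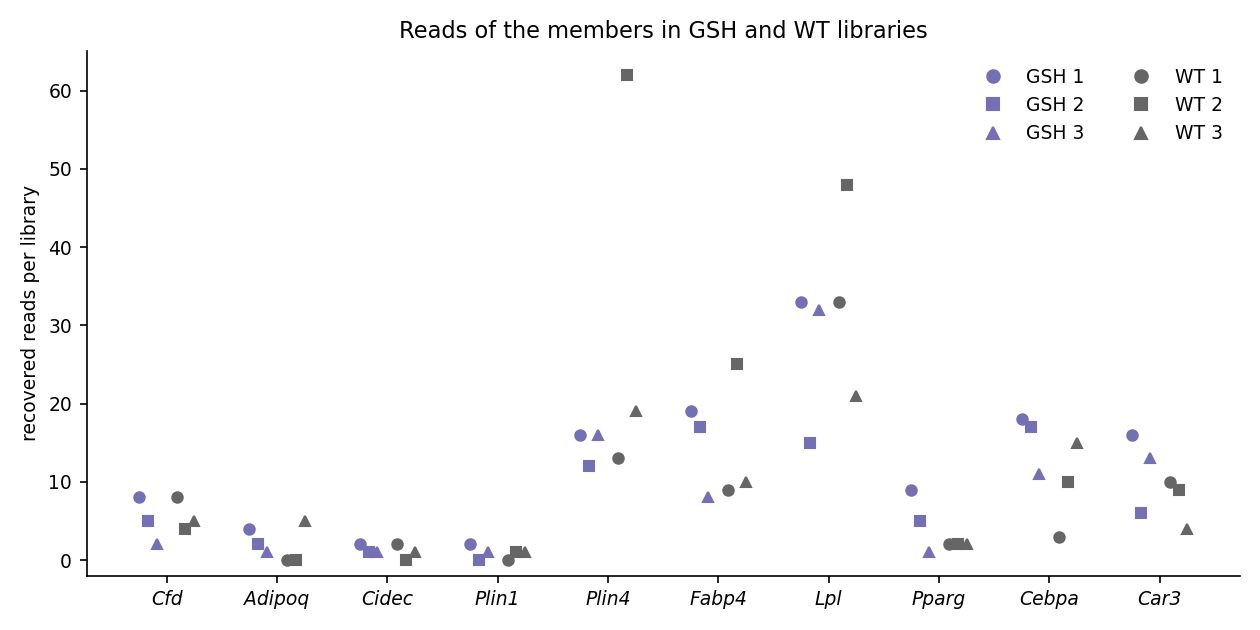
Recovered whole reads of the 10 adipocyte genes in each GSH and WT library. Most values are under 20 reads, and WT 2 is highest for Plin4 (62 reads), Fabp4 (25 reads) and Lpl (48 reads).

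WT 2 was the highest of these 6 libraries for Plin4, Fabp4 and Lpl, the 3 genes that the plot of reads shows apart. Plin4 stood at 0.0835, 0.1 and 0.136 FPKM in the GSH libraries and at 0.0933, 0.481 and 0.140 FPKM in WT 1 to 3. Lpl stood at 0.104, 0.0758 and 0.165 FPKM in the GSH libraries and at 0.143, 0.226 and 0.0934 FPKM in WT. WT 2 also held the highest skeletal muscle sum, with the muscle actin Acta1 at 44.8 FPKM in WT 2 and at 9.25 to 14.2 FPKM in the other 5 libraries, and Plin4 and Lpl are known to be expressed in muscle. Car3, which skeletal muscle also uses, was not highest there, at 0.185, 0.111 and 0.245 FPKM in the GSH libraries and 0.159, 0.155 and 0.0651 FPKM in the WT libraries. The part of muscle transcripts in these values was not tested.

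Genes of lipid storage that carcinoma cells share with adipocytes were higher in GSH more often than lower. Of 11 tested genes of lipolysis and the lipid droplet, 6 rose, 1 fell and 4 did not pass (20.6% of all tested genes rose and 16.4% fell), with a median log2 change of 0.15 against 0.02 over all tested genes. Plin2 stood at 87.3, 93.6 and 91.9 FPKM in the GSH libraries and at 67.6, 68.5 and 70.9 FPKM in WT 1 to 3, with no overlap (90.9 ± 3.24 FPKM in GSH and 69.0 ± 1.71 FPKM in WT, SD, n = 3 each; log2 change 0.39, SE 0.04, limma adjusted p = 0.00178). Cavin1, which shapes the caveolae of the plasma membrane, rose to 43.0 ± 1.01 FPKM in GSH, against 34.3 ± 0.753 FPKM in WT (SD, n = 3 each; log2 change 0.32). Plin3, the triglyceride lipase Pnpla2, its activator Abhd5 and the triglyceride synthase Dgat2 rose as well, with log2 changes of 0.20, 0.22, 0.20 and 0.15, and Dgat1, the other triglyceride synthase, fell (log2 change -0.17). Of these calls, those of Plin2, Plin3 and Cavin1 held under every alternative run, whereas those of the other 4 ended under several. The call of Abhd5 ended when any 1 of the 6 libraries was left out (adjusted p of 0.0567 to 0.123 in limma). That of Pnpla2 ended without any library but WT 2 (0.0696 to 0.117), that of Dgat2 without any but GSH 3 (0.0794 to 0.0944) and that of Dgat1 without any but GSH 2 (0.0543 to 0.14). With FPKM rescaled to the total without mitochondrially encoded genes, the calls of Abhd5 (0.0968), Pnpla2 (0.111) and Dgat2 (0.141) ended, which leaves 3 of the 6 increases.

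Among 13 tested genes of fatty acid uptake and triglyceride synthesis, 5 rose, 2 fell and 6 did not pass (20.6% of all tested genes rose and 16.4% fell). Acly, which makes cytosolic acetyl-CoA for lipid synthesis, rose to 86.8 ± 2.05 FPKM in GSH, against 70.3 ± 1.73 FPKM in WT (SD, n = 3 each; log2 change 0.30, limma adjusted p = 0.00198). The fatty acid synthase gene Fasn rose to 91.1 ± 4.56 FPKM in GSH, against 76.9 ± 3.25 FPKM in WT (SD, n = 3 each; log2 change 0.24). Me1, a malic enzyme that supplies NADPH, Acaca, the first enzyme of fatty acid synthesis, and the fatty acid carrier Fabp5 rose with log2 changes of 0.24, 0.18 and 0.13, and the fatty acid transporter Slc27a1 and the lipase maturation factor Lmf1 fell with log2 changes of -0.13 and -0.14. Fabp5 stood at 37.4, 40.5 and 37.5 FPKM in the GSH libraries and at 35, 34.0 and 35.8 FPKM in WT 1 to 3, so that the ratio of Fabp4 over Fabp5 was 0.00256 to 0.00807 over these libraries. In Cas9 1 to 3 it was 1.9, 1.59 and 0.252, and in Ctrl 3 it was 1.89, set beside the first as tables normalised separately. Of the remaining lists, 2 of 9 tested adipogenic factors (the retinoid receptor Rxra and Klf5) and 2 of 6 receptor and insulin signalling genes (the adiponectin receptor Adipor1 and Akt2) rose, 0 of 5 adipokines passed, and the proton channel gene Otop1 fell. The 2 of 9 adipogenic factors are close to the 20.6% of all tested genes that rose. The calls of Acly, Fasn, Me1, Rxra and Adipor1 held under every alternative run, and those of the other 7 ended under some. The call of Lmf1 ended when any 1 of the 6 libraries was left out (adjusted p of 0.0666 to 0.12 in limma), that of Fabp5 without any but GSH 1 (0.055 to 0.102), and those of Acaca and Otop1 without WT 1 (0.0519 and 0.0556). That of Slc27a1 ended without GSH 1, GSH 3, WT 1 or WT 2 (0.0536 to 0.0654), and that of Klf5 without GSH 1, GSH 3, WT 2 or WT 3 (0.071 to 0.092). With FPKM rescaled to the total without mitochondrially encoded genes, the calls of Akt2 (0.0635), Acaca (0.0709), Klf5 (0.119) and Fabp5 (0.147) ended. Over all tested genes, 55.7% of the calls were higher in GSH, and 34.1% of 4240 calls were when FPKM were rescaled to the total without mitochondrially encoded genes.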

How the data were processed

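RNA values of 10 libraries (3 GSH, 3 WT, 3 Cas9 and Ctrl 3) were used, grouped by sample title. The deposited values carry no unit in the file headers and were read as FPKM from their steps and range. By the same steps, the deposited FPKM are scaled to gene length and to a total of each library; no header or label records this. The build mm8 and the tools HTSeq 0.6.0, HISAT2 2 and Bowtie2 2.2.3 are named, with no roles, per the submitters' processing notes. The annotation of the Cas9 and Ctrl table is not given in the sources used here. The GSH and WT table lists 30803 Ensembl identifiers, 30190 of which matched a symbol in the reference tables, and the Cas9 and Ctrl table lists 17558 symbols. The promoter windows are RefSeq's in another build (GRCm38.p6) than mm8, and no coordinate of the deposited files was used.

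Whole reads were recovered to give depth and counting error. In the GSH and WT libraries, merged exon lengths of GENCODE M21 gave whole reads within 0.15 read for 98.7 to 98.8% of genes; in the Cas9 and Ctrl libraries reads came from the steps between libraries and the total from 150 genes whose length matched. Steps give the smallest whole numbers of reads that fit, so reads printed for that table assume no common factor, and none are printed for genes where a common factor or a lone value had to be set from a gene length. Intervals at 95% cover counting error only.

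Tests used limma 3.58.1 in R 4.3.3 (lmFit, eBayes with trend) on log2(FPKM + 1), with group as the only term, two-sided, over genes whose mean in the libraries compared reached 1 FPKM, with Benjamini-Hochberg adjustment over all of them at 0.05. Fold changes on this scale understate the change of weakly expressed genes. Code was checked on simulated data; tables were handled with Python 3.11.15, pandas 2.3.3 and numpy 2.4.6. The alternatives were a pseudocount of 0.1, minima of 0 and 0.1 on the mean FPKM, relative log expression scaling, rescaling without mitochondrially encoded genes, a replicate block and leaving out each library. The adipocyte genes and all 20 lists were chosen with earlier results of these data known. Named genes were the 10 markers, the list members that passed, otherwise members with the highest level, and the 10 genes most like the markers; Ucp1, Lep, Retn, Hp, Plin2 in Cas9 and Ctrl, Gpihbp1, Csn3, Krt1, Acta1, Ptprc, Wap and the genes under other observations were named after their values were seen.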

Additional observations from a re-analysis of the deposited data

How the results depend on the processing

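No adipocyte gene was called in either comparison under any alternative that could be run, and no log2 change of the 7 tested adipocyte genes in Cas9 against Ctrl, or of the genes named as called in GSH against WT, changed sign. For Cas9 against Ctrl, 0 genes passed in limma under each setting, with 189 to 552 at an unadjusted p of 0.05 (210 with the settings reported). Leaving out 1 library at a time, the count of adipocyte genes highest in Ctrl 3 ran from 7 to 9, an alternative chosen after seeing the data. For GSH against WT, 4547 genes passed and leaving out 1 library gave 2998 (without WT 1) to 3671; each of these fits has 1 library fewer. Replicate numbers did not pair the GSH and WT samples, whose same-numbered deviations correlated at 0.479, -0.107 and 0.209, and with the replicate block 3867 genes passed. No paired analysis was possible for Cas9 against Ctrl because only Ctrl 3 was used. Rescaling without mitochondrially encoded genes was not run there because that table lists 0 of them. Depth limits the GSH and WT values of the adipocyte genes, and a single Ctrl library limits each comparison with Cas9.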

Other observations

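Some lipid-handling genes were highest in Cas9 3, the library with the skin transcripts. Cidea, a lipid droplet gene of brown fat and of sebaceous glands, stood at 0.0481, 0.130 and 1.36 FPKM in Cas9 1 to 3 and at 0 in Ctrl 3. Elovl3, a fatty acid elongase of the same tissues, stood at 0.964 FPKM in Cas9 3 and at 0 in the other 3 libraries. Awat1, an acyltransferase of wax synthesis in sebaceous glands, stood at 1.68 FPKM in Cas9 3 and at 0 in the other 3. Fabp5, the fatty acid carrier of epidermis, stood at 28.3, 20.8 and 108 FPKM in Cas9 1 to 3 and at 24.6 FPKM in Ctrl 3, and G0s2, an inhibitor of adipose triglyceride lipase, at 5.91, 3.54 and 23.6 FPKM in Cas9 and 2.48 FPKM in Ctrl 3. Of these genes, Fabp5 and G0s2 were tested for Cas9 against Ctrl and neither was called in limma, and the mean level of the others was under the minimum.

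Several milk protein genes, picked after their values were seen, were highest in Ctrl 3. Csn2, which encodes beta-casein, was listed at 0 in each Cas9 library and at 0.380 FPKM in Ctrl 3. Csn1s1 was listed at 0 in each Cas9 library and at 0.213 FPKM in Ctrl 3. Lalba, the alpha-lactalbumin gene, stood at 0.418, 0 and 0 FPKM in Cas9 1 to 3 and at 0.635 FPKM in Ctrl 3. Elf5, a transcription factor of luminal progenitors, stood at 0, 0 and 0.0247 FPKM in Cas9 1 to 3 and at 0.480 FPKM in Ctrl 3. The mean level of these genes was under the minimum for the test. Others of the same list ran the other way, with Glycam1 at 0, 0.0451 and 0.259 FPKM in Cas9 1 to 3 and at 0 in Ctrl 3. The luminal keratin Krt8 stood at 589, 747 and 885 FPKM in Cas9 1 to 3 and at 808 FPKM in Ctrl 3, inside the Cas9 range.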
